A study of Homo sapiens with 2 samples.

Results

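The H/ACA box small nucleolar RNAs and the small Cajal body RNAs were examined in 769-P cells, a long-established line grown from human renal cell carcinoma of the clear-cell type. Total RNA was hybridised to Affymetrix whole-transcript arrays, which give 1 log2 value per transcript cluster, a set of probes summarised as 1 gene or locus. 1 array held RNA of cells that carried the lentiviral vector plv-EGFP without an insert, and 1 array held RNA of cells that carried pLV-EGFP-FOXK2, the same vector with the full coding sequence of the forkhead transcription factor FOXK2. Both groups therefore carried EGFP and the vector's puromycin resistance, and the labels do not say whether a group was 1 clone or a mixed population, nor how long after transduction it was harvested. A transcript cluster was a member if its single annotated gene symbol started with SNORA or SCARNA, and 93 of the 23784 transcript clusters with 1 symbol met this rule. 6 of the 93 were copies of SNORA38 on alternative haplotypes of chromosome 6, which left 87 members on the assembled chromosomes, 66 SNORA and 21 SCARNA. Another 38 transcript clusters named a SNORA or SCARNA together with other genes and were not members.

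H/ACA box RNAs fold into hairpins that base-pair with a target RNA and place a uridine in the active site of dyskerin, which turns it into pseudouridine. Most of those named SNORA act in the nucleolus on ribosomal RNA, while those named SCARNA collect in Cajal bodies and mainly guide the modification of spliceosomal small nuclear RNAs. In human cells nearly all are cut out of introns of host genes, many of which encode ribosomal proteins or translation factors or are noncoding RNAs of the SNHG series. The symbol rule is wider than the H/ACA class: SCARNA2, SCARNA7, SCARNA9L and SCARNA17 belong to the C/D box class, and SCARNA5, SCARNA6, SCARNA10 and SCARNA12 carry both kinds of box. A transcript cluster inside an intron can take up the mature small RNA, its precursor and the unspliced host, and these values do not separate them.

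The sequences below surround the start of 6 host genes on which the results turn, in the RefSeq annotation of GRCh38.p14. Each line runs from 50 bases before the annotated start to 50 bases after it, 5′ to 3′, and the 5 capitals are the first transcribed bases. They are shown because many hosts of small nucleolar RNAs start with a terminal oligopyrimidine tract, a C followed by pyrimidines, which ties translation of the transcript to growth signals. SNHG17 hosts the SNORA71 RNAs (chr20:38435279-38435378, minus strand), SNHG8 hosts SNORA24 (chr4:118278712-118278811, plus strand), RPL12 hosts SNORA65 (chr9:127451357-127451456, minus strand), RPLP2 hosts SNORA52 (chr11:809917-810016, plus strand), NSD2 hosts SCARNA22 (chr4:1871343-1871442, plus strand) and DANCR hosts SNORA26 (chr4:52712344-52712443, plus strand).
SNHG17: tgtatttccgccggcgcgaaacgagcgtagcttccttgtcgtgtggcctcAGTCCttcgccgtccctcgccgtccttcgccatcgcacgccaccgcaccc
SNHG8: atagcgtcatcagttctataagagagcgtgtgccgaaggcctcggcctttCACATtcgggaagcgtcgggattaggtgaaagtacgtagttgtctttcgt
RPL12: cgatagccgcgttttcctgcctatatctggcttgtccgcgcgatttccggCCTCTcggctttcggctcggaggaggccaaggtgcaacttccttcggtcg
RPLP2: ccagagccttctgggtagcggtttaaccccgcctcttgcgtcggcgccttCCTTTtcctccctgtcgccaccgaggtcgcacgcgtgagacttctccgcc
NSD2: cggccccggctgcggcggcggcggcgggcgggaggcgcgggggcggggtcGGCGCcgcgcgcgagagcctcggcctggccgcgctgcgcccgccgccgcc
DANCR: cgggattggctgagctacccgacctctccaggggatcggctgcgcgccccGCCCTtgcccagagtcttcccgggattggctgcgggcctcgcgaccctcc

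With 1 array per group there was no replicate, no test and no estimate of error, and each difference given here is 1 measurement: the log2 value of the FOXK2 array less that of the empty vector array. In a bulk sample, fewer cells of a type and less RNA per cell cannot be told apart. The targeted gene FOXK2 read 9.36 with empty vector and 13.82 with FOXK2, the direction given by the labels. Of the 6 measured kidney epithelial markers all lay above the level limit defined below, whereas all 9 measured markers of leukocytes, endothelium and fibroblasts had mean values between 3.25 and 4.55, below it. The epithelial markers were not all alike in the arrays: LRP2, the endocytic receptor megalin, had 13.15 with empty vector and 16.20 with FOXK2 and CDH6 had 9.97 and 10.42, while PAX8, PAX2, KRT8 and KRT18 lay between -0.37 and -0.083. Over all 67528 transcript clusters the median was 4.48 with empty vector and 4.55 with FOXK2, and no member stood at the highest value of either array. As a guide to the precision within this array pair, the 98 genes with several transcript clusters above the level limit gave differences that disagreed by a median of 0.19. These were genes of any kind, and the precision for small RNAs can be lower. Transcript clusters of the member SNORA38 gave differences of -0.92 and -0.29. The signals of different transcript clusters depend on their probes and are not read here as relative abundances.

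The SNORA members lay mostly lower in the FOXK2 array, and the SCARNA members lay near zero. Of the 87 members, 59 had negative differences, 27 positive and 1 none, so 67.8% were negative, against 44.9% of all 22737 transcript clusters with 1 symbol on assembled chromosomes. The median difference was -0.31 over the 66 SNORA members and -0.084 over the 21 SCARNA members, beside 0.021 over all those transcript clusters. The SCARNA median was -0.15 after centring and -0.054 after subtraction of the median of neighbouring genes. After each array was centred on its median, 81.6% of the members and 59.3% of all transcript clusters were negative, both counted at any level. The C/D box RNAs named SNORD, the class most like these, had a median of -0.10 over 175 transcript clusters, and the small nuclear RNA genes named RNU one of 0.036 over 218.

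Counts of large differences used a level limit, a mean log2 value of 5.24, which is the median over all transcript clusters with 1 symbol. 74 of the 87 members reached it and 13 did not. Above it, 68.9% of the members had negative differences, against 55.5% of all transcript clusters and 60.2% of the SNORD ones, so the gap was narrower than over all levels. 9 of the 74 (12.2%) were at least 2-fold lower with FOXK2, where 3.09% of all 11379 transcript clusters above the limit were. 1 of the 74 (1.35%) was at least 2-fold higher, against 2.14% of all. At a limit of 1.5-fold the members gave 22 lower and 3 higher, against 10.7% and 6.09% of all. None of the 88 SNORD transcript clusters above the limit was 2-fold different in either direction. In the plot of difference against level, the 9 lower members run from a mean log2 value of 8.15 (SNORA74A) to 13.83 (SNORA24).

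**Figure D1:**
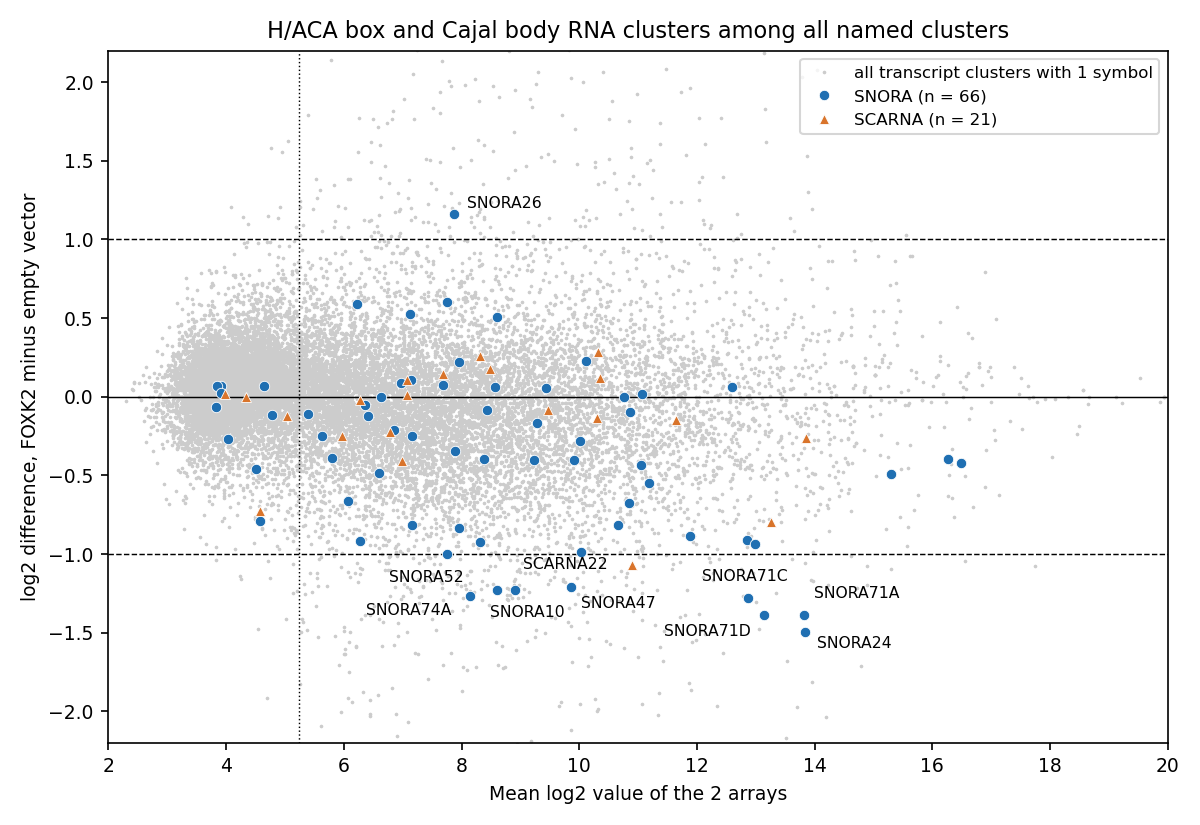
Log2 difference (FOXK2 minus empty vector, vertical axis) against the mean log2 value of the 2 arrays (horizontal axis) for the 66 SNORA (circles) and 21 SCARNA (triangles) members, over all transcript clusters with 1 symbol in grey, of which those beyond 2.2 in size lie outside the frame. Dashed lines mark 2-fold, the dotted line marks the level limit of 5.24, and 9 members lie below the lower dashed line and 1 above the upper one.

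The lower differences were largest among the brighter SNORA transcript clusters. Of the 14 SNORA members with a mean log2 value of at least 11, 12 were negative and the median was -0.72. In this group 4 were at least 2-fold lower, SNORA24 and 3 SNORA71 copies in SNHG17 that may share probes. Over all 1423 transcript clusters with a mean of at least 11, 56% were negative, 4.78% were at least 2-fold lower and the median was -0.053. The 30 SNORD transcript clusters there had a median of -0.026. This order did not hold at every level: between the level limit and 7, the 24 SNORD transcript clusters had a median of -0.32 with 19 negative, and the 12 SNORA members one of -0.17 with 9 negative. Among the 9 SNORA members below the level limit the median was -0.064. Across the 66 SNORA members the difference and the mean level had a Spearman correlation of -0.40, given as a description, since all points come from the same 2 arrays and the level is part of both measures. The same value was -0.088 over the 21 SCARNA members. It was -0.089 over all transcript clusters above the limit, whereas the SNORA value also took in 9 members below it. These sets span unlike ranges of level, so the values are not directly comparable. The plot of both values per member shows the longest steps at the top of the left column, among bright and moderate transcript clusters alike.

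**Figure D2:**
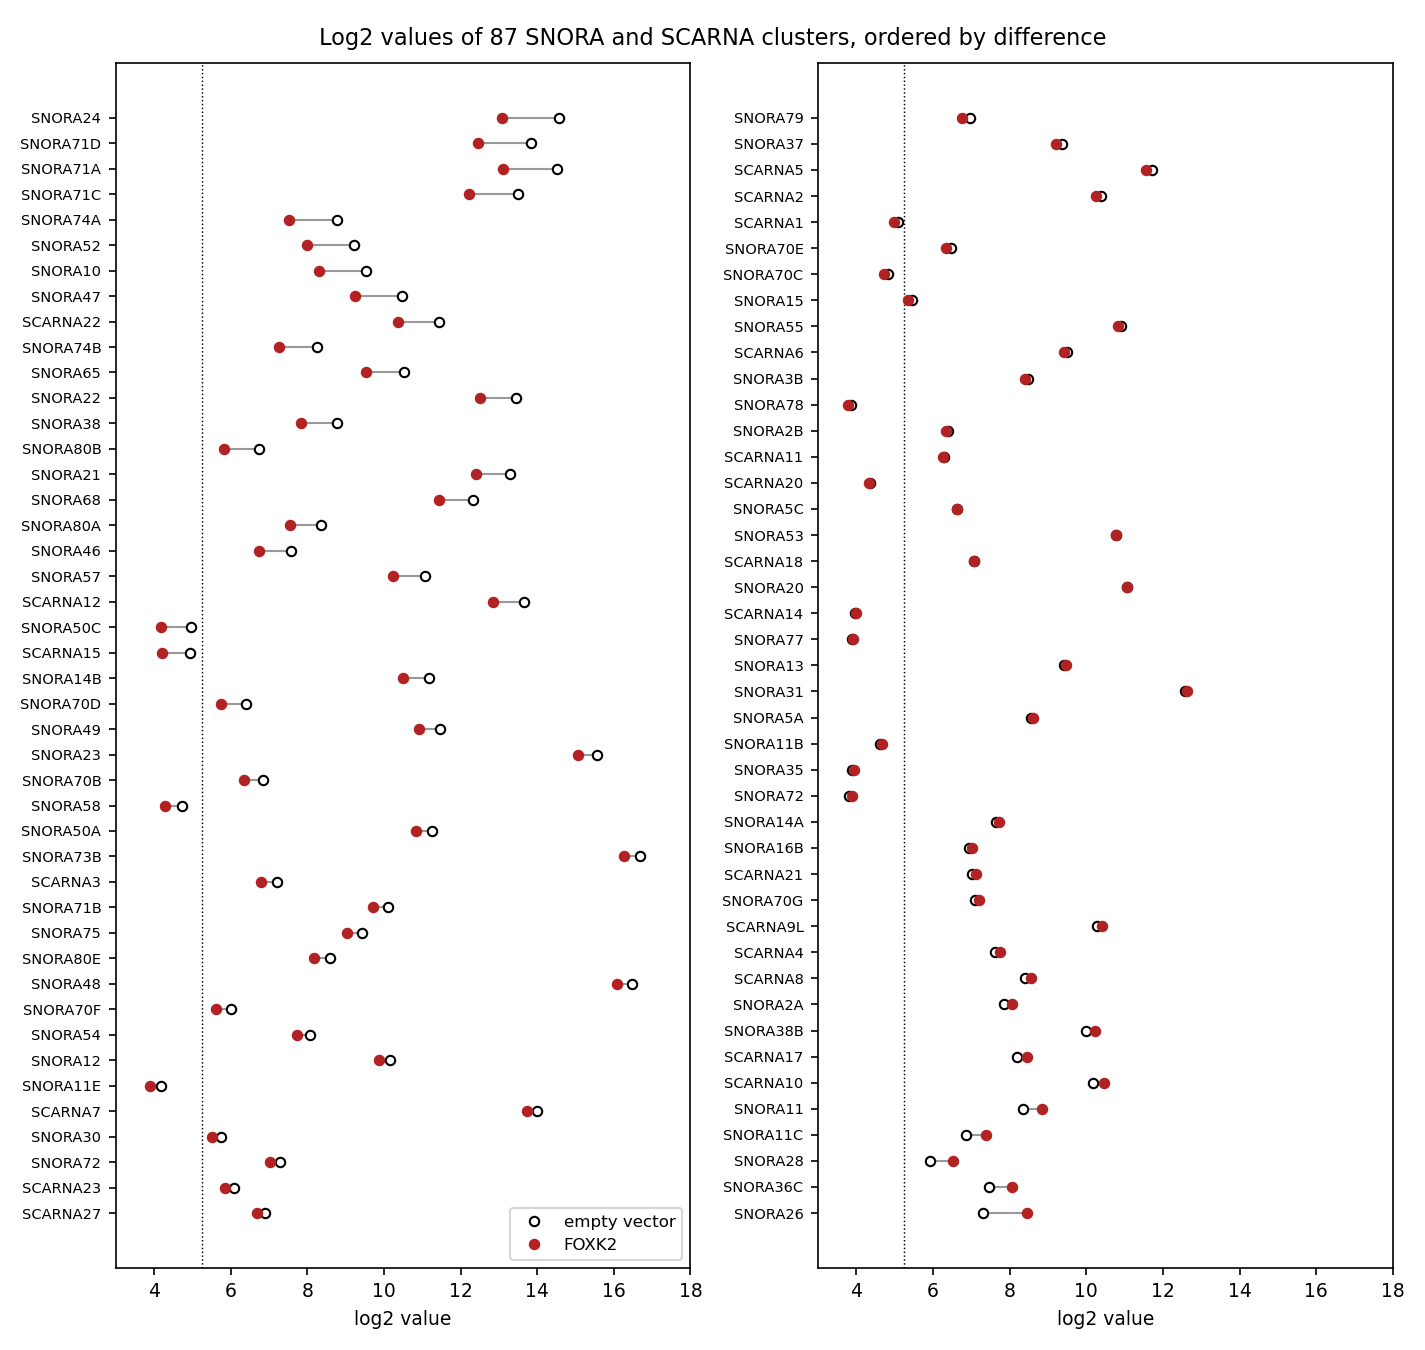
Log2 value with empty vector (open circles) and with FOXK2 (filled circles) for each of the 87 members, ordered from the most negative difference (SNORA24, -1.49, top left) to the most positive (SNORA26, 1.16, bottom right). The dotted line marks the level limit of 5.24, and each line joins the 2 arrays of 1 member.

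Members in noncoding host genes held 4 of the 9 lower members and the 1 higher one, but 3 of these 4 were SNORA71 copies in 1 host, SNHG17. The shares over all transcript clusters above the level limit were 3.09% at least 2-fold lower and 2.14% at least 2-fold higher. SNORA24, which guides pseudouridylation of the small-subunit ribosomal RNA, had 14.58 with empty vector and 13.09 with FOXK2, a difference of -1.49 or 2.82-fold lower. Its host SNHG8 had 9.09 and 8.21, a difference of -0.88 in the same direction. The median difference of the 51 genes nearest to SNORA24 was -0.38, and the member stood at -1.11 after that was subtracted.

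SNHG17 holds 4 members, SNORA71A to SNORA71D, which are related copies that guide the small-subunit ribosomal RNA and may share probes, so that their single values are uncertain. SNORA71A had 14.50 with empty vector and 13.12 with FOXK2, SNORA71D had 13.83 and 12.44, and SNORA71C had 13.50 and 12.23. These 3 were 2.61-fold, 2.62-fold and 2.43-fold lower with FOXK2. SNORA71B, in the same host, had 10.11 and 9.71, a difference of -0.40. SNHG17 itself had 7.69 and 7.25, a difference of -0.45, so the difference of SNORA71B was within 0.045 of the host's, while those of the other three minus the host's ran from -0.94 to -0.83.

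The other members with a noncoding host ranged widely. SNORA26, in DANCR, had 7.29 with empty vector and 8.46 with FOXK2, a difference of 1.16 or 2.24-fold higher, while DANCR, a long noncoding RNA, stood at 5.23 and 5.35, at the level limit. SNORA26 was the only member at least 2-fold higher, and it stood at 0.94, short of 2-fold, after the median of its 51 neighbouring genes was subtracted. SNORA22, in the expressed pseudogene CCT6P1, had 13.45 and 12.52, a difference of -0.94 beside -0.37 for CCT6P1. SNORA13, in EPB41L4A-AS1, had 9.41 and 9.47 while its host differed by -0.23. SCARNA15 in SNHG21 (-0.72) and SNORA78 in SNHG9 (-0.064) lay below the level limit in both arrays.

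Each of the 7 members hosted by ribosomal protein genes lay lower in the FOXK2 array, at a median difference of -0.91, and 2 of them were at least 2-fold lower. The shares over all transcript clusters above the level limit, where all 7 lay, were 55.5% negative and 3.09% at least 2-fold lower. SNORA52, in RPLP2, had 9.22 with empty vector and 7.99 with FOXK2, 2.34-fold lower. SNORA10, in RPS2, had 9.53 and 8.30, 2.34-fold lower. SNORA65 in RPL12 (10.53 and 9.54) and SNORA21 in RPL23 (13.30 and 12.39) had differences of -0.99 and -0.91. SNORA72 in RPL30 and SNORA3B in RPL27A were nearer to zero, at -0.25 and -0.084. A second transcript cluster annotated as SNORA72, without a gene identifier, had values of 3.81 and 3.88, below the level limit.

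The ribosomal protein hosts had smaller negative differences than most of these RNAs. RPL12, of the large subunit, had 14.02 with empty vector and 13.33 with FOXK2, a difference of -0.69. RPL30, with a pair of transcript clusters that were averaged, had a difference of -0.76, more negative than that of SNORA72. The transcript cluster annotated to RPLP2 and SNORA52 together had 12.95 and 12.56, the one of RPS2 and SNORA64 had 14.04 and 13.61, and the one of RPL23 and SNORA21 had 9.49 and 9.15. These shared transcript clusters differed by -0.39, -0.43 and -0.34, and the members' differences minus these were -0.84 for SNORA52, -0.80 for SNORA10 and -0.57 for SNORA21.

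The 64 members in other protein-coding hosts had a median of -0.13, with 41 negative, and 3 of the 56 above the level limit (5.36%) were at least 2-fold lower. Of those 56, 66.1% were negative. The shares over all transcript clusters above the limit were 55.5% negative and 3.09% at least 2-fold lower. SNORA74A, within MATR3 and the overlapping noncoding gene SNHG4, had 8.78 with empty vector and 7.52 with FOXK2, 2.41-fold lower, and the transcript cluster shared by both hosts had 11.25 and 10.68. Its relative SNORA74B, in ATP6V0E1, a subunit of the proton pump of vacuoles, had 8.25 and 7.25, a difference of -0.998 just short of 2-fold, beside -0.46 for the host. SNORA47, in ZBED3, had 10.46 and 9.25, 2.31-fold lower, while ZBED3 had 6.88 and 6.59, a difference of -0.29. The 3 classes of host were formed after the values had been seen, and the plot by host class is a description of them. The median for these other protein-coding hosts was -0.20 after centring and -0.073 after subtraction of the neighbours' median, and that of the noncoding class was -0.49 after the latter.

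**Figure D3:**
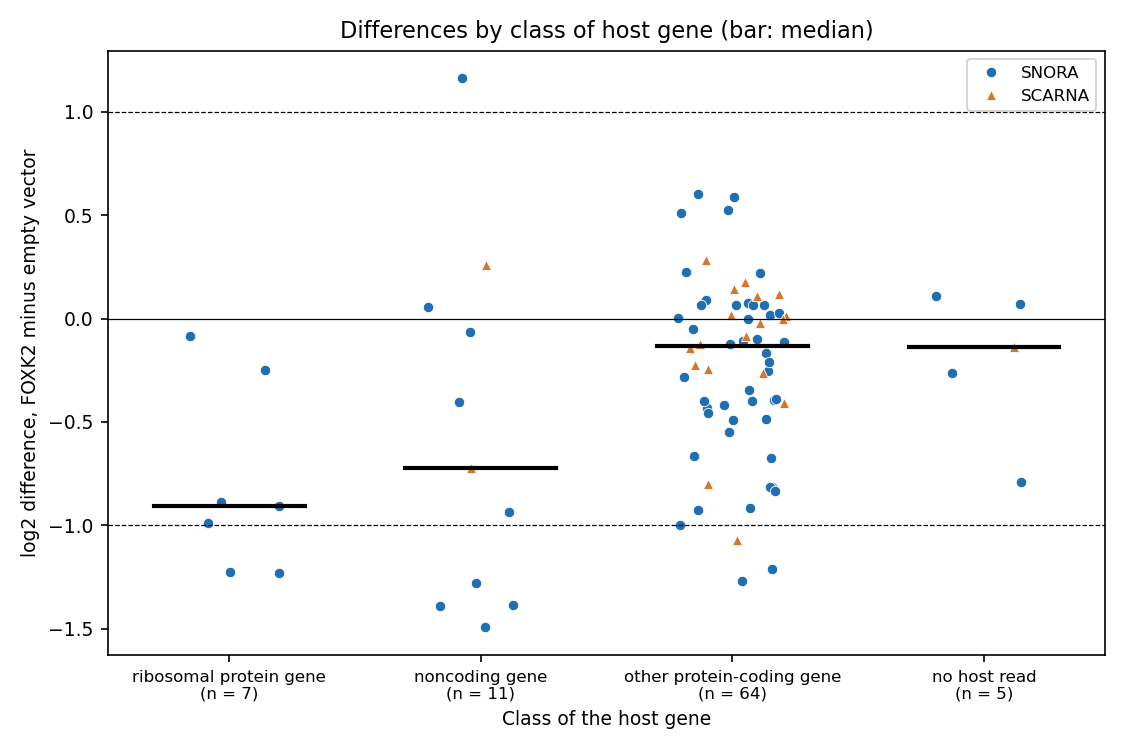
Log2 difference (FOXK2 minus empty vector, vertical axis) of each SNORA (circles) and SCARNA (triangles) member by class of host gene, with the median as a bar. The medians are -0.91 for 7 members in ribosomal protein genes and -0.72 for 11 in noncoding genes. They are -0.13 for 64 in other protein-coding genes and -0.14 for 5 without a host read from the annotation. Of the 11 in noncoding genes, 4 are SNORA71 copies in SNHG17 that may share probes. The noncoding median is the value of SCARNA15, which lies below the level limit.

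The third was the Cajal body RNA SCARNA22, described below, and the rest of this class lay between -0.998 (SNORA74B) and 0.60. SNORA38 in PRRC2A, SNORA80A in URB1, a gene of large-subunit ribosome assembly, and SNORA57, whose host CSKMT had only a shared transcript cluster, stood at -0.92, -0.83 and -0.81, while PRRC2A and URB1 stood at -0.35 and -0.44. However, 2 haplotype copies of SNORA38 gave a difference of only -0.29. SNORA14B, in the mitochondrial import receptor gene TOMM20, had 11.18 with empty vector and 10.51 with FOXK2, and SNORA49, in the chromatin remodeller gene EP400, had 11.46 and 10.91. Their differences of -0.68 and -0.55 were more negative than those of the hosts, -0.21 and -0.31. SNORA55 in PABPC4 and SNORA53 in SLC25A3 stood at -0.097 and 0.0014, so bright members without a difference were found too. SNORA15 lay in CCT6A, a subunit gene of the chaperonin TRiC, whose difference of -0.63 was larger than the -0.11 of the member. SNORA38B, in the ribosome biogenesis gene NOL11, stood at 0.23, unlike its relative SNORA38.

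Genes around the members lay near the value of all transcript clusters above the level limit, from which these neighbours were drawn. The median over each member's 51 neighbouring genes on the chromosome had a median of -0.047, beside -0.050 over all those transcript clusters. In all, 56 of the 87 members lay below the median of their neighbours. After the neighbours' median was subtracted, the member median was -0.11 and 64.4% of the members were negative, against 40.2% of all transcript clusters at any level. A share for those above the level limit, where most members lay, was not computed in this setting. Without the subtraction, 34.3% of all transcript clusters below the limit and 55.5% of those above it were negative. The neighbours of SNORA65 (-0.42), SNORA74B (-0.37) and SNORA74A (-0.23) were among the lower ones, which left differences of -0.57, -0.63 and -1.04 for these members. The 9 lower members all stayed at least 2-fold lower after the subtraction.

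The brightest SNORA transcript clusters had moderate negative differences. SNORA73B, an RNA that acts in cleavage of the ribosomal precursor, had 16.69 with empty vector and 16.27 with FOXK2. SNORA48, in the translation factor gene EIF4A1, had 16.47 and 16.08. SNORA23, in the nuclear import gene IPO7, had 15.55 and 15.06. The differences of the 3 were -0.42, -0.39 and -0.49. SNORA31, in TPT1, which encodes a translationally controlled tumour protein, was at 12.57 and 12.63, and with SNORA20 it was 1 of 2 positive SNORA members at a mean of 11 or more.

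Related copies in different hosts did not always lie on the same side of zero. The 3 SNORA80 members were all negative, SNORA80B at -0.91, SNORA80A at -0.83 and SNORA80E at -0.40. Of the 6 SNORA70 members 5 were negative, from -0.66 for SNORA70D to 0.11 for SNORA70G. Of the 4 SNORA11 members 3 were positive, SNORA11C at 0.52 and SNORA11 at 0.51 among them, both on chromosome X. The only other members beyond 0.5 on the positive side apart from SNORA26 were SNORA28, at 5.93 and 6.52, and SNORA36C, at 7.46 and 8.06. For SNORA38, the transcript cluster on chromosome 6 and 4 of its haplotype copies held the same values, 8.77 and 7.85, a difference of -0.92. These may summarise the same probes, so their agreement is no check of the measurement. The other 2 copies held 7.96 and 7.67, a difference of -0.29.

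Among the Cajal body RNAs, SCARNA22 alone of the 17 above the level limit (5.88%) was at least 2-fold different. This share was near that of all transcript clusters above the limit, of which 3.09% were at least 2-fold lower and 2.14% higher. SCARNA22, an orphan H/ACA RNA in the histone methyltransferase gene NSD2, had 11.43 with empty vector and 10.36 with FOXK2, 2.10-fold lower. NSD2 had 8.96 and 9.22, a difference of 0.27 in the other direction. SCARNA12, in the prohibitin gene PHB2, followed with 13.65 and 12.86, a difference of -0.80, and PHB2 with 13.11 and 12.66 also lay lower.

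The remaining SCARNA members above the level limit lay between -0.41 and 0.28. The C/D box member SCARNA7, in KPNA4, had 13.98 and 13.72, and SCARNA2, which has its own promoter and guides modification of the U2 small nuclear RNA, had 10.38 and 10.24. SCARNA10, which guides modification of the U5 small nuclear RNA, had 10.18 and 10.46, a difference of 0.28, and SCARNA17 had 8.18 and 8.44. SCARNA3 stood at -0.41, SCARNA23 at -0.25, SCARNA27 at -0.22, SCARNA5 at -0.14, SCARNA6 at -0.084 and SCARNA11 at -0.019. SCARNA18 stood at 0.014, SCARNA21 at 0.11, SCARNA9L at 0.12, SCARNA4 at 0.14 and SCARNA8 at 0.18. SCARNA1, SCARNA14, SCARNA15 and SCARNA20 lay below the level limit.

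The comparison with hosts covered 64 members in 57 hosts that had a transcript cluster of their own. The hosts, too, lay lower more often than higher, with 42 of 57 negative and a median of -0.17. Only 1 was at least 2-fold lower and none higher. Of all transcript clusters above the level limit, 55.5% were negative, with a median of -0.050, and 3.09% were at least 2-fold lower. The host at least 2-fold lower was ODC1, the ornithine decarboxylase of polyamine synthesis, with 12.77 with empty vector and 10.95 with FOXK2. Its RNA SNORA80B had 6.73 and 5.82, a difference of -0.91 against -1.82 for ODC1. The member and its host had the same sign in 46 of the 64 pairs. This count does not show that members follow their own hosts, since most of both were negative. The difference of the member minus that of its host had a median of -0.099, with 35 members below their host and 29 above, and 50% of these values lay between -0.38 and 0.27.

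2 members lay at least 1 on the log2 scale below their host and 1 lay as far above. They were SCARNA22 against NSD2 (-1.34), SNORA46 against CNOT1 (-1.02) and SNORA26 against DANCR (1.05, from a host just above the level limit). The largest gaps above the host after SNORA26 were SNORA36C against AAK1 (0.91), SNORA80B against ODC1 (0.91), SCARNA14 against TIPIN (0.85, from a member below the level limit) and SCARNA21 against the chromatin remodeller gene CHD3 (0.78). As a description over these pairs, which share both arrays, the Pearson correlation of member and host differences was 0.51 over 48 SNORA members and -0.19 over 16 SCARNA members. For 12 further members the host had only a transcript cluster shared with other annotated genes, and there 8 lay below that value and 4 above. For the other 11, 5 had no host read from the annotation and 6 had a host without a usable transcript cluster.

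**Figure D4:**
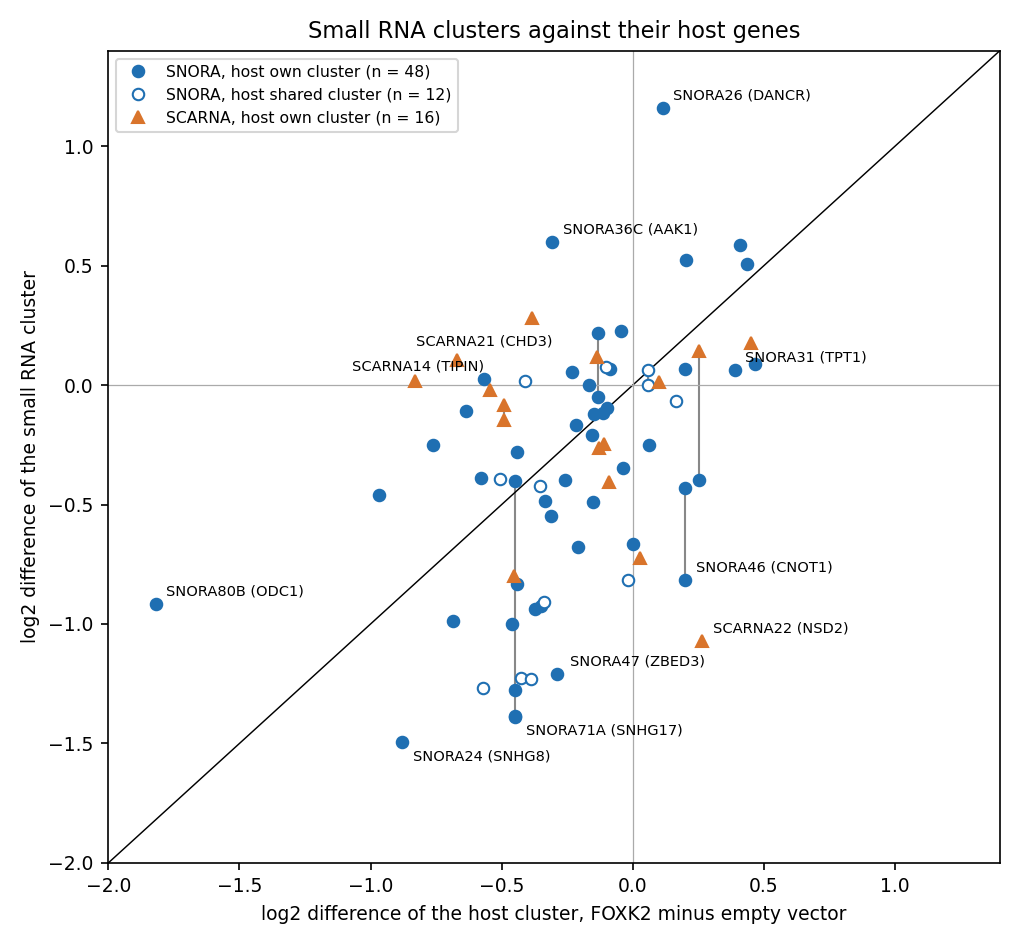
Log2 difference of each member (vertical axis) against that of its host gene (horizontal axis), filled where the host has its own transcript cluster and open where it shares one, with grey lines joining members of 1 host. Points under the diagonal are members more negative than their host, such as SCARNA22 at -1.07 against 0.27 for NSD2.

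6 hosts held several members, a pair in each except SNHG17 with 4, and the gap between the highest and lowest difference within a host had a median of 0.33. SCARNA5 and SCARNA6, in the autophagy gene ATG16L1, were 0.060 apart, at -0.14 and -0.084, while ATG16L1 with 7.61 and 7.12 stood at -0.49. SNORA5A and SNORA5C, in TBRG4, were 0.065 apart, at 0.065 and 0, next to 0.058 for the transcript cluster of TBRG4 and SNORA5B. SNORA2A and SNORA2B, in KANSL2, were 0.27 apart, at 0.22 and -0.050.

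The gaps were wider in the other 3 shared hosts. SNORA46 and SNORA50A, in CNOT1, the scaffold of the CCR4-NOT deadenylase, had 7.56 and 6.75, and 11.26 and 10.83, so that both were lower, by differences of -0.82 and -0.43, while CNOT1 stood at 0.20. SNORA80E and SCARNA4, in KHDC4, were 0.54 apart, at -0.40 and 0.14, with the host at 0.25. The 4 members in SNHG17 had the widest range, 0.99, which came from SNORA71B alone. Only 3 C/D box transcript clusters lay in a host of a member. SNORD10 stood at -0.37 beside SNORA48 at -0.39 in EIF4A1, and in the nucleolin gene NCL SNORD20 stood at 0.52 and SNORD82 at 0.057 beside SNORA75 at -0.40.

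A pyrimidine start, meaning C at the first transcribed base and C or T at each of the next 4 bases on the transcribed strand, was found for 14 of the 61 hosts with a RefSeq start window, or 23%, against 5.14% of all 27305 genes with one. The 14 members in those hosts had a median difference of -0.52, with 12 negative and 2 at least 2-fold lower, SNORA52 and SNORA74A. The 54 members in hosts without it had a median of -0.12, with 32 negative and 6 at least 2-fold lower. Of all transcript clusters above the level limit, 3.09% were at least 2-fold lower. The hosts with a transcript cluster of their own had medians of -0.35 for 8 with a pyrimidine start and -0.15 for 41 without. SNORA52, SNORA65 and SNORA3B, among the 14, were also among the members in ribosomal protein genes. Of the sequences shown above, RPL12 and RPLP2 have such a start by this definition, and SNHG17, SNHG8, NSD2 and DANCR do not. An annotated start can be off by some bases. The forkhead core letters GTAAACA, searched on both strands, were in none of the 82 windows of these hosts, each 250 bases before to 50 after a start, and in 3.42% of all 35116 windows.

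Transcripts for 3 of the 4 core proteins of the H/ACA particle were measured, and none was 2-fold different. NOP10, which encodes a small core protein, had 13.51 with empty vector and 12.72 with FOXK2, a difference of -0.79. NHP2 stood at -0.54 and GAR1 at -0.18, the latter within the disagreement of 0.19 between transcript clusters of 1 gene, and for dyskerin, the product of DKC1, no transcript cluster of its own was used. All 3 measured transcripts were thus negative, as were the 3 measured for the C/D box particle, NOP58 at -0.50, fibrillarin (FBL) at -0.49 and SNU13 at -0.16. Above the level limit, where these genes lay, 55.5% of all transcript clusters were negative.

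Of 9 genes for assembly of these particles, 6 were negative with a list median of -0.60 and 1 was at least 2-fold lower. Of all transcript clusters above the level limit, 55.5% were negative and 3.09% were at least 2-fold lower. RPAP3 (0.037) changed sign on centring and NUFIP1 (0.091) on subtraction of the neighbours' median. The gene at least 2-fold lower was RUVBL1, an ATPase of the R2TP chaperone complex, with 8.59 and 7.39, 2.30-fold lower. RUVBL1 stood at -0.93 after its neighbours' median was subtracted. Its partner RUVBL2 stood at -0.61. ZNHIT6 stood at -0.88, SHQ1, the chaperone of dyskerin, at -0.75, NAF1, the H/ACA assembly factor, at -0.60 and ZNHIT3 at 0.30. Among 10 measured Cajal body genes 8 were negative, beside the same 55.5% of all, with a list median of -0.096 and none 2-fold different. However, COIL (-0.029) and PHAX (-0.046) changed sign under the loess and quantile scalings and TGS1 (-0.087) on subtraction of the neighbours' median. NOLC1, a nucleolar and coiled body phosphoprotein, had 9.94 and 8.99, a difference of -0.95, GEMIN5 stood at -0.78, and COIL, which encodes coilin, the defining protein of the Cajal body, had 8.60 and 8.57. WRAP53, which brings these RNAs to the Cajal body, stood at 0.24.

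TERC, the telomerase RNA, which ends in an H/ACA domain and is bound by the same core proteins, had 10.53 with empty vector and 9.10 with FOXK2, 2.69-fold lower. TERC is transcribed from its own promoter and has no host. TERT, the catalytic subunit, had 4.51 and 4.60, below the level limit. Of 7 genes that release and trim such RNAs, 5 were negative, beside 55.5% of all transcript clusters above the level limit, and none was 2-fold different. DBR1, which opens intron lariats, stood at -0.69, the nuclease PARN at -0.25 and EXOSC10, of the nuclear exosome, at 0.17. The 12 pseudouridine synthases that work without a guide RNA were evenly split, 6 negative and 6 positive with a median of -0.0011, although RPUSD2 and RPUSD3 changed sign on subtraction of the neighbours' median. TRUB1 was lowest among them, with 9.98 and 8.99.

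**Figure D5:**
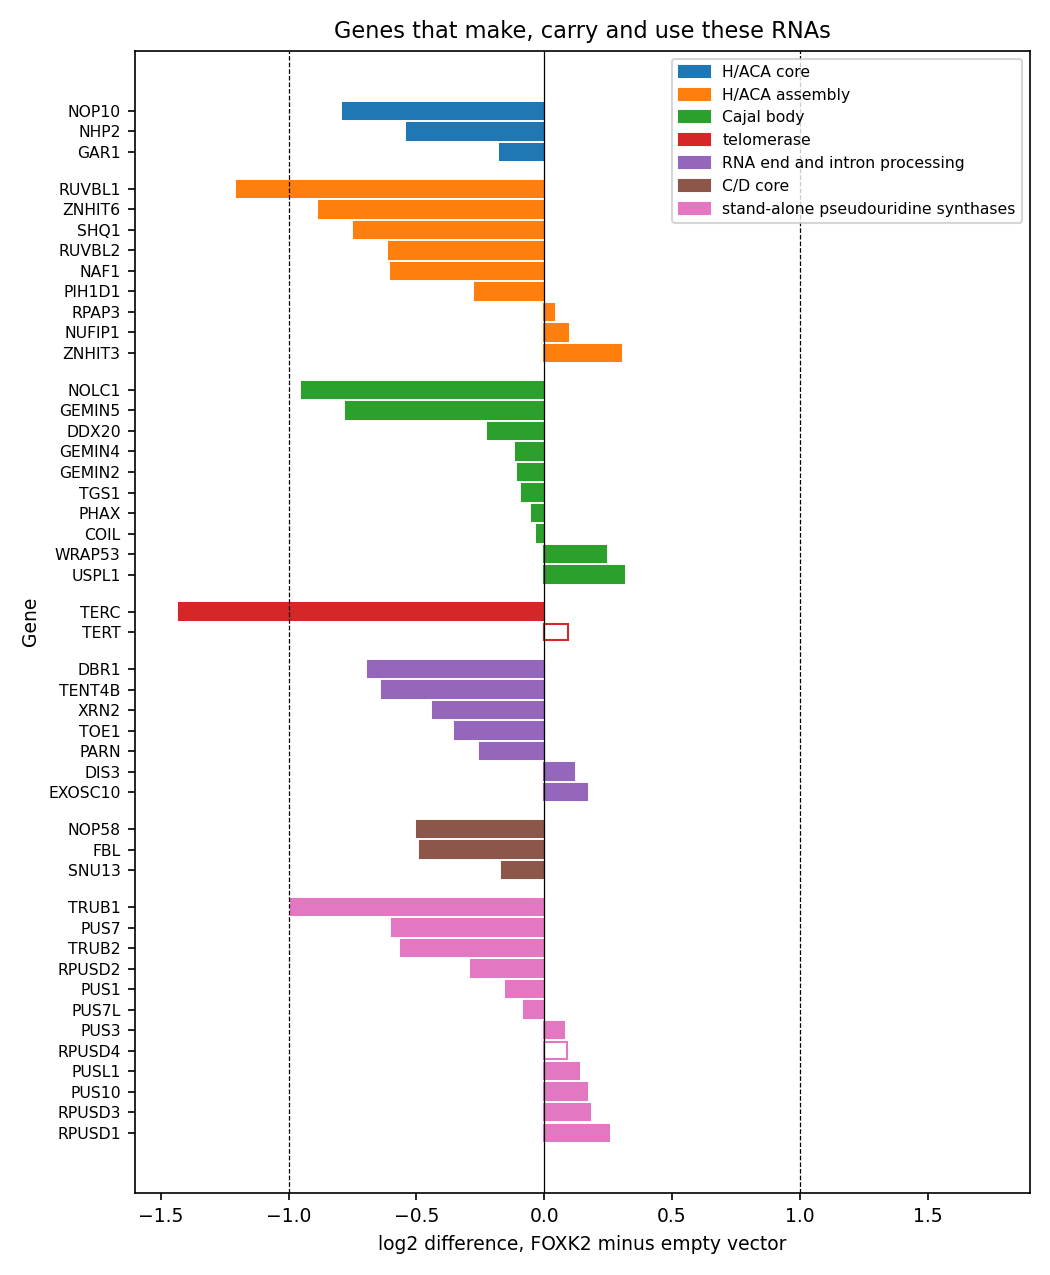
Log2 difference (FOXK2 minus empty vector, horizontal axis) of each measured gene of 7 lists, with open bars for genes below the level limit. Dashed lines mark 2-fold, which only TERC at -1.43 and RUVBL1 at -1.20 passed.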

How the data were processed

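The authors deposited a log2 value for each transcript cluster on each array. They used Affymetrix Expression Console, per the submitters' processing notes. Its version, algorithm and settings, and the build of the array design, were not given in the sources used here. Per the labels' protocols, RNA was extracted with Trizol and labelled with the WT PLUS kit. The log2 scale was read from the range of the values, which were used without further normalization. The number of arrays, 2, limits the precision, and probe background was not used here.

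Transcript clusters were named through the platform annotation: 23784 had 1 symbol (SNORA73B, listed there in duplicate, included), 1540 several and 42204 none. A host was the RefSeq gene (GRCh38.p14) that contains the member, matched by Entrez identifier for 85 of 87 members; measured hosts came first, then protein-coding, then the shortest. That table has no strand, so strand was read from promoter records and from the order of cluster identifiers, which gave the recorded strand for 99.4% of 14549 transcript clusters; chromosome 8 was not read. Transcript clusters of a host were averaged. Neighbouring genes were drawn only from transcript clusters at or above the level limit.

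Named were members at or beyond 2-fold, those in shared hosts, those at least 1 from their host, the brightest 10, every SCARNA, and listed genes; other members were chosen after their values were seen. Members and lists were chosen with earlier results of these data known. Alternatives were centring, a loess trend (span 0.3), quantile normalization, level and fold limits, lettered families counted once, current symbols and host definitions; subtraction of the median of 51 neighbouring genes, haplotype copies, shared host clusters and leaving out SNHG17 were added later. The calculations, in Python 3.11.15 with numpy 2.4.6, pandas 2.3.3, statsmodels 0.14.6 and matplotlib 3.10.9, were tested on simulated data.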

Additional observations from a re-analysis of the deposited data

How the results depend on the processing

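No paired analysis was possible because each group held 1 array, and for the same reason no array could be left out. The 9 lower members were 12 after centring on the medians, 7 with lettered families counted once, 9 in every other alternative run that kept the 2-fold limit, and the 9 themselves stayed at least 2-fold lower under each of the 3 scalings and after subtraction of the neighbours' median. At a 1.5-fold limit 22 members were lower and 3 higher, against 10.7% and 6.09% of all transcript clusters above the level limit. The count of higher members went from 1 to 0 after subtraction of the neighbours' median, since SNORA26 then stood at 0.94. The median over the 87 members was -0.22 and ranged from -0.29 after centring to -0.11 after subtraction of the neighbours' median; it was -0.17 without the 4 members in SNHG17. The member minus host median, -0.099, ranged from -0.14 to -0.071, and the host median, -0.17, from -0.24 to -0.15. The sign of the difference was kept by 75 of 87 members after centring, by 83 after the loess and quantile steps and by 77 after subtraction of the neighbours' median. All 7 members in ribosomal protein genes were negative in these 4 settings. Depth has no counterpart here: whether the 13 members below the level limit lay above background is not known.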
